A study of Homo sapiens with 16 samples.

Results

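The comparison of untreated PANC1 with untreated MiaPaCa2 rested on 4 of the 16 RNA-Seq libraries of the study. Both lines are established cultures of human pancreatic ductal adenocarcinoma, each from 1 patient's tumor, so each stands for a single tumor. Both were cultured in the same high-glucose medium with fetal bovine serum. The controls were harvested at 24 hours with 0 nmol/L gemcitabine and 0 μmol/L genistein, and each line has 2 such libraries, labelled I and II. The other 12 libraries come from the same lines after 24 hours with gemcitabine at 40 nmol/L, with genistein at 50 μmol/L, or with the pair together (co-treatment). The study's methods call I and II biological replicates. Neither they nor the labels say how the replicates were raised. The p-values therefore measure the spread between libraries I and II, pooled over the groups of all 16 libraries.

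Pancreatic ductal adenocarcinoma arises in an epithelium whose cells are joined by E-cadherin junctions, stand on laminin through integrins and secrete mucins. Cell lines of the disease keep this epithelial program to very different degrees, and some take up genes of mesenchymal cells, the spindle-shaped cells of connective tissue. The lines also differ in the growth factor pathways they use and in how they metabolize sugars, fats, aldehydes and nucleoside drugs such as gemcitabine.

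Reads counted on genes numbered 16850992 and 13445125 in MiaPaCa2 control I and II and 21889823 and 31991860 in PANC1 control I and II. Libraries I and II differed more in PANC1 than in MiaPaCa2, with a chi-square per gene of 32.03 against 3.46. The treated groups had 2.70 to 19.7, so the value was highest in the PANC1 controls among the groups whose spread the tests pool. It also rises with the number of reads, and the PANC1 controls had the most, so it does not rank the groups by unevenness. Across 17488 genes, the difference between I and II followed the GC content of the gene, with Spearman's rho of 0.701 in PANC1 and -0.296 in MiaPaCa2. Defining markers of other cells were low in part. All 5 islet hormone genes had 0 counts in the 4 libraries, 6 of 7 acinar genes had 3 counts or fewer, and so did 5 of 7 blood and immune genes. The summed FPKM of the blood and immune genes was nevertheless 18.5 to 24.7 in MiaPaCa2 and up to 130.5 in PANC1, where both libraries lay above both of MiaPaCa2. CD68 alone had 129.6 and 108.3 FPKM in PANC1 control I and II, against 14.2 and 19.8 in MiaPaCa2 control I and II. Its counts in PANC1 were only 13 and 14, and 81.6% of its exons overlap another gene on the same strand. The high sum in PANC1 thus rests mostly on CD68, a gene with few counted reads. The summed FPKM (fragments per kilobase of transcript, scaled to the mapped reads) of 4 ductal markers was 193 to 222 in MiaPaCa2 and 651 to 796 in PANC1. That of the 7 fibroblast markers was 0.676 to 1.03 in MiaPaCa2 and 80.5 to 103.4 in PANC1, where DCN, LUM, PDGFRA and FAP nevertheless had 3 counts or fewer. The part of these markers in the results was not tested.

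Of 17863 genes tested with limma-voom, 9330 were called, which is 52.2%. To be called, a gene had to reach an adjusted p of 0.05 or less, differ by 0.4 or more on the log2 scale, and have a mean FPKM over 1 in either line. PANC1 had the higher level for 4987 genes (27.9%) and MiaPaCa2 for 4343 (24.3%). Differences of at least 4-fold, that is 2 on the log2 scale, were found for 1510 genes higher in PANC1 (8.45%) and for 789 lower in PANC1 (4.42%). The PANC1 control libraries are deeper. With every library thinned to the reads of the smallest, 4552 genes were called higher and 4534 lower in PANC1. Of differences of at least 4-fold, 1461 and 792 were then found. The shares in percent are the background for the gene lists that follow, since about every other gene was called. All log2 fold changes are PANC1 minus MiaPaCa2 with their standard error (SE), and adjusted p-values are limma-voom with Benjamini-Hochberg adjustment. In these bulk samples, fewer cells with a transcript and less of it per cell cannot be told apart.

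Epithelial junction and keratin genes differed mostly in one direction. Of 45 genes, 38 were tested, 24 were called higher in PANC1 and 4 lower, with a median log2 fold change of 1.42 against 0.056 over all genes tested. 13 were at least 4-fold higher in PANC1 and 1 at least 4-fold lower. CDH1, which encodes E-cadherin and lies at chr16:68771195-68869440 (GRCh37), had 1 and 0 counts in MiaPaCa2 I and II and 483 and 634 in PANC1, where its FPKM was 13.2 and 8.84 (adjusted p = 1.45e-07, both PANC1 libraries above both MiaPaCa2 libraries). EPCAM, an epithelial surface glycoprotein gene at chr2:47572297-47614740, had 0 and 0 counts in MiaPaCa2 and 211 and 443 in PANC1. Against 3 counts per library this is at least 59-fold higher. PPL, which encodes the desmosomal plaque protein periplakin, had 2 and 1 counts against 3431 and 4453, at least 755-fold higher. For all 3 genes the MiaPaCa2 libraries held fewer than 3 reads each. A fold against 3 counts is then a lower bound of the counted ratio, as for every fold written with "at least".

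The ductal keratins differed by unequal amounts. KRT19, a keratin of ductal cells, had 176 and 204 FPKM in MiaPaCa2 and 749 and 609 in PANC1, with a log2 fold change of 1.90 ± 0.18 (adjusted p = 9.03e-07). KRT7, the other ductal keratin, had 3 and 1 counts in MiaPaCa2 and 123 and 122 in PANC1, at least 24-fold higher. KRT8 and KRT18, the pair that builds simple-epithelial filaments, were also called higher in PANC1. MiaPaCa2 thus held KRT19 transcript in both libraries, where CDH1 and EPCAM had at most 1 count. Against the direction of the list, EHF, an ETS transcription factor of epithelia on chr11:34642640-34684835, had 2133 and 1611 counts in MiaPaCa2 and 0 and 1 in PANC1, at least 1036-fold higher in MiaPaCa2. The tight junction gene CLDN1 had 11.6 and 11.2 FPKM in MiaPaCa2 and 3.42 and 3.86 in PANC1, a log2 fold change of -1.78 ± 0.15 (adjusted p = 2.12e-07). PKP2 and TJP3 were called lower in PANC1 too, and MARVELD3, RAB25 and PRSS8 had 3 counts or fewer in all 4 libraries.

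Promoters of 3 epithelial genes that were called higher in PANC1 are shown because these genes moved together and because E-boxes, the letters CAGGTG or on the other strand CACCTG, are bound by the repressors ZEB1 and SNAI1. The 3 were picked for their matches. CLDN7 and JUP have 2 annotated starts each and AP1M2 has 1, and the start with the most matches is shown. The sequences are from RefSeq on GRCh38.p14, run from 250 bases before to 50 bases from the annotated start on, read 5′ to 3′ on the strand of the gene, and carry the E-box letters in capitals. CLDN7 (claudin 7, tight junctions, chr17:7262429-7262728, minus strand) holds 5 matches, AP1M2 (an epithelial sorting adaptor, chr19:10587263-10587562, minus strand) 3 and JUP (plakoglobin, chr17:41785927-41786226, minus strand) 2.
CLDN7: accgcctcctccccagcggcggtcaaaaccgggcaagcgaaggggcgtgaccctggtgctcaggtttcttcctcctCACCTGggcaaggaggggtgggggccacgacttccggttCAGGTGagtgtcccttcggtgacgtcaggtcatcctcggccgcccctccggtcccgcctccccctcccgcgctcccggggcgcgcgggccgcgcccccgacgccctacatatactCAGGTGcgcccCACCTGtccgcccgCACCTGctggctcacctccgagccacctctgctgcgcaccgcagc
AP1M2: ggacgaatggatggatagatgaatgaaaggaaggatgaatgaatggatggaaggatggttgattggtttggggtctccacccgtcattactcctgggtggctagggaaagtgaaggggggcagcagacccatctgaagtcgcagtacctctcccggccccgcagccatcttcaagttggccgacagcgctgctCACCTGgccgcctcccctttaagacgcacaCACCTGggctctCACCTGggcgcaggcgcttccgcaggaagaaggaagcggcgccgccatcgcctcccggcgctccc
JUP: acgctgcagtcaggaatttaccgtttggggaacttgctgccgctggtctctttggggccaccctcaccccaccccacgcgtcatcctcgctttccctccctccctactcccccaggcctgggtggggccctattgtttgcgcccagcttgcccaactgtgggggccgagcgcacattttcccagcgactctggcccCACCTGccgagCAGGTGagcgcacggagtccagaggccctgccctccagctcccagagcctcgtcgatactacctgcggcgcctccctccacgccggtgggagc

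CLDN7 had 2 and 0 counts in MiaPaCa2 and 555 and 737 in PANC1, at least 123-fold higher. AP1M2 had 0 and 0 against 158 and 200, at least 34-fold higher. JUP, which was present in both lines, had 4.86 and 6.22 FPKM in MiaPaCa2 and 92.9 and 70.9 in PANC1, a log2 fold change of 3.82 ± 0.24 (adjusted p = 1.88e-08). All 3 genes were thus higher in both PANC1 libraries, from absent to present for 2 of them. Of the 45 epithelial genes, 24 had a promoter in the table and 15 of these (62.5%) held an E-box, with 8 of 13 (61.5%) among those called higher in PANC1. In the mesenchymal list, 3 of 18 genes with a promoter (16.7%) did. A list gene was counted once, as a match if any of its annotated starts held an E-box. Counted start by start, 7231 of all 35116 promoters did (20.6%), so this share is not the same measure as those of the lists. A match is a string of letters and not a bound site. CDH1, EPCAM, ESRP2, PPL and KRT7 had no entry.

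Genes of the mesenchymal program were also higher in PANC1 more often than in MiaPaCa2. Of 26 tested genes, 13 were called higher in PANC1 and 4 lower, with a median log2 fold change of 1.59. CDH2, which encodes N-cadherin, had 0 and 0 counts in MiaPaCa2 and 843 and 1434 in PANC1, at least 211-fold higher, so CDH1 and CDH2 transcripts stood together in PANC1 and were at 0 or 1 count in MiaPaCa2. THY1, a surface glycoprotein of fibroblasts, had 2 and 0 against 1052 and 1411 counts, at least 235-fold higher. MMP2, a collagen-degrading protease, had 3 and 7 counts in MiaPaCa2 and 6859 and 9365 in PANC1, a log2 fold change of 9.86 ± 0.71 (adjusted p = 5.60e-08). Other members were lower in PANC1. CALD1 (caldesmon, an actin-binding protein) had 21.3 and 24.4 FPKM in MiaPaCa2 and 2.76 and 3.85 in PANC1, and S100A4, a calcium-binding protein of motile cells, had 1915 and 1836 against 476 and 393, with log2 fold changes of -2.76 ± 0.20 and -2.15 ± 0.11. ACTA2 (smooth muscle actin) also was lower, by a log2 fold change of -1.15 ± 0.21.

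Vimentin, the intermediate filament used to mark mesenchymal cells, was high in both lines. VIM had 3704 and 3662 FPKM in MiaPaCa2 and 2735 and 2633 in PANC1, and the log2 fold change of -0.48 ± 0.07 passed the threshold (adjusted p = 5.15e-05). The repressor gene ZEB1 had 3.66 and 4.11 FPKM in MiaPaCa2 and 2.28 and 3.54 in PANC1, and was not called at -0.46 ± 0.26 (adjusted p = 0.143). Without PANC1 control II the ZEB1 log2 fold change was -0.83 (adjusted p = 0.0271). SNAI1 was called higher in PANC1, whereas SNAI2 and ZEB2 were not called and TWIST1 had 3 counts or fewer in all 4 libraries. The scatter of both lists to the right of 0 is visible in the plot of the line difference by list.

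**Figure D1:**
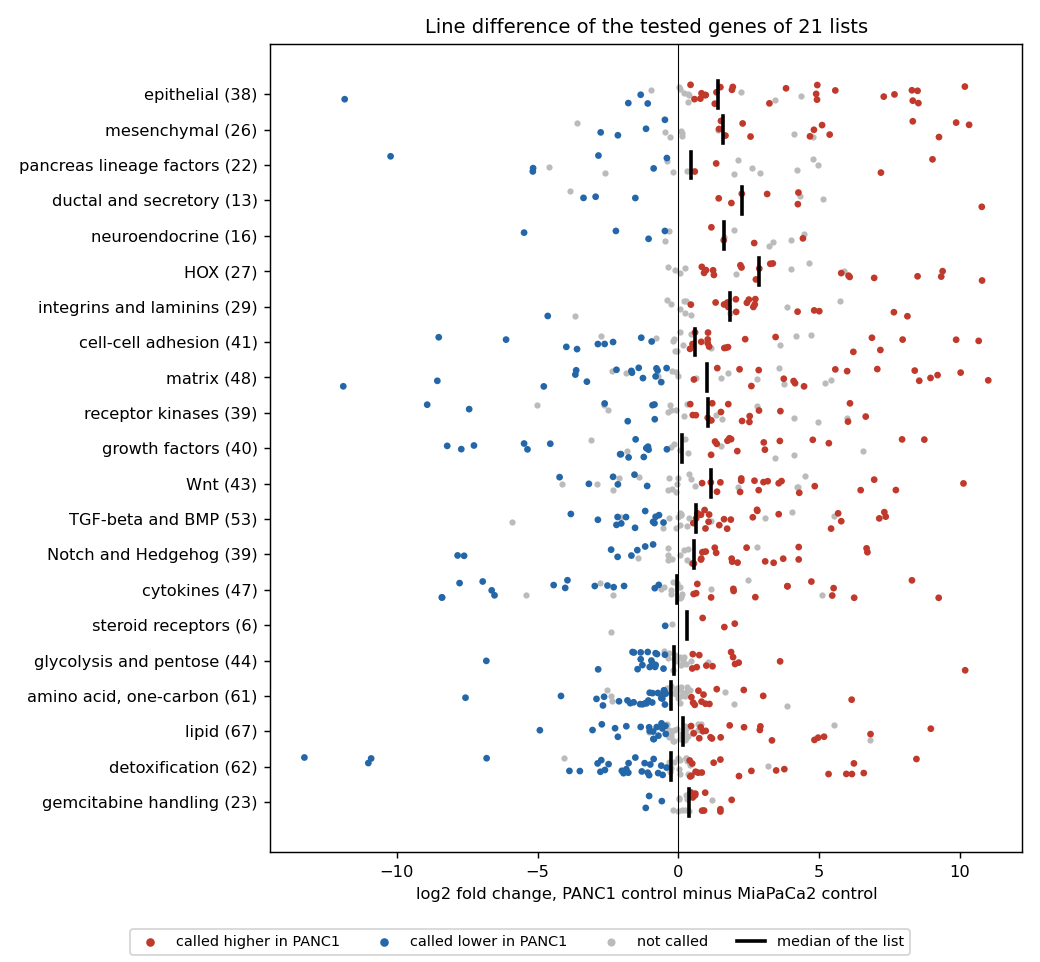
Log2 fold change (PANC1 control minus MiaPaCa2 control, horizontal axis) of every tested gene of 21 gene lists, 1 row per list with the number of tested genes in brackets. The row named steroid receptors holds estrogen and estrogen-related receptors and their partners. Red points were called higher and blue points lower in PANC1, gray points were not called, and the black bar is the list's median, which is 1.42 for the epithelial and 1.59 for the mesenchymal list.

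Lineage transcription factors of foregut and pancreas were split between the lines. Of 22 tested, 4 were called higher in PANC1, 6 lower and 12 not called, which at 45.5% is below the share of all genes. FOXA2, a pioneer factor of endoderm at chr20:22561636-22566093, had 1 and 1 counts in MiaPaCa2 and 1137 and 1582 in PANC1, at least 258-fold higher. SOX9, which marks ductal progenitors, was present in both, with 16.6 and 17.9 FPKM in MiaPaCa2 and 25.4 and 27.4 in PANC1 (log2 fold change 0.58 ± 0.08, adjusted p = 3.90e-05). In MiaPaCa2 the most separate member was TP63, the master factor of squamous and basal epithelia at chr3:189349178-189615065. It had 2908 and 2358 counts in MiaPaCa2 and 2 and 5 in PANC1, a log2 fold change of -10.22 ± 0.36 (adjusted p = 8.88e-11). PAX6 and MNX1, factors of endocrine pancreas and of neurons, were lower in PANC1 by log2 fold changes of -5.16 ± 0.26 and -2.84 ± 0.22. GATA6, a factor of the classical tumor subtype, had 2 and 1 against 8 and 19 counts and was not called because its FPKM stayed below 1. PTF1A, NEUROG3, NEUROD1, PAX4, NKX2-2, RBPJL and BHLHA15 had 3 counts or fewer in the 4 libraries.

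Many genes of secreted and ductal products had hardly a read in either line. Of 34 genes, 14 had 3 counts or fewer in all 4 libraries, CFTR, CEACAM5, MUC13 and TSPAN8 among them, and 13 were tested. Of these, 7 were higher in PANC1, 3 lower and 3 not called. AGR2, which encodes a protein disulfide isomerase needed for mucin folding, had 3 and 1 counts in MiaPaCa2 and 5266 and 9280 in PANC1, at least 1344-fold higher. The tetraspanin gene TSPAN1 was lower in PANC1, with a log2 fold change of -1.53 ± 0.15. Neuroendocrine genes were divided 4 and 4 among 16 tested, which at 50% called is near the 52.2% of all genes. The neuronal adhesion molecule gene L1CAM had 23.5 and 21.8 FPKM in MiaPaCa2 and 158 and 137 in PANC1, and MAP2, a dendritic microtubule protein gene, differed by 4.42 ± 0.27 on the log2 scale. SCG2, a granule protein gene, had 877 and 608 counts in MiaPaCa2 and 23 and 34 in PANC1, and STMN3 was lower in PANC1 by -2.22 ± 0.18. ENO2, the neuronal enolase, was lower by -1.06 ± 0.15. CHGA, the defining granule marker, had at most 2 counts in any control library.

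HOX genes carry positional identity along the body axis, and none of them was called higher in MiaPaCa2, except for 1 when the fit was corrected for GC content, when the counts were thinned, or without MiaPaCa2 control I or PANC1 control I. Of 27 tested, 19 were called higher in PANC1, 14 of them at least 4-fold, with a median log2 fold change of 2.87, or 2.24 with genes at 3 counts or fewer in 1 line set to their bound. HOXC9, HOXC10 and HOXC11, neighbors in the HOXC cluster, had at most 1 count in either MiaPaCa2 library. In PANC1 the count of HOXC10 was 2223 and 3134, at least 508-fold higher. HOXC9 reached 473 and 704 counts there, at least 110-fold higher, and HOXC11 474 and 657.

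**Figure D2:**
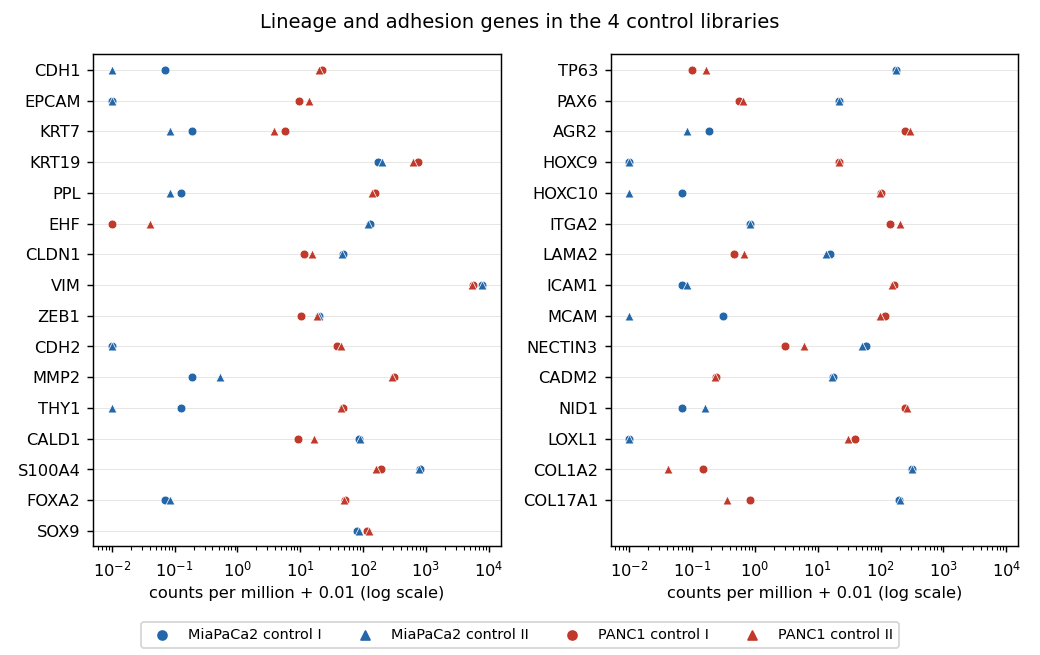
Read counts scaled to library size (CPM) plus 0.01, on a horizontal log axis, of lineage and adhesion genes in each of the 4 control libraries, MiaPaCa2 in blue and PANC1 in red, replicate I as circles and II as triangles. CDH1, EPCAM, CDH2 and HOXC9 stand at the left edge in MiaPaCa2 with at most 1 count, while VIM and KRT19 are high in both lines.

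Integrins and laminins, the receptors and ligands that fix cells to the basement membrane, differed mostly in one direction. Of 29 tested, 17 were called higher in PANC1 and 1 lower, 12 of them at least 4-fold higher, with a median of 1.84 on the log2 scale. ITGA2, the collagen-binding α2 chain, had 14 and 11 counts in MiaPaCa2 and 3059 and 6440 in PANC1 (log2 fold change 7.65 ± 0.47, adjusted p = 1.28e-08). ITGB3, the β3 chain that pairs with αv, had 0.123 and 0.124 FPKM against 5.93 and 4.86, although 33.2% of its exons overlap another gene on the same strand. The one member higher in MiaPaCa2 was LAMA2, the laminin chain of muscle, with 8.42 and 7.06 FPKM against 0.221 and 0.0570 in PANC1 (-4.64 ± 0.26). The subunits ITGB1, ITGB4, LAMA3 and LAMB3 were not called.

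Cell-cell adhesion genes differed in both directions. Of 41 tested, 19 were higher in PANC1 and 9 lower, against 27.9% and 24.3% of all genes tested. At least 4-fold higher were 19.5% and at least 4-fold lower 17.1%, against 8.45% and 4.42% of all genes. ICAM1, a ligand of leukocyte integrins at chr19:10381769-10397291, had 1 and 1 counts in MiaPaCa2 and 3626 and 4826 in PANC1, at least 807-fold higher. MCAM had 5 and 0 against 2545 and 3161 counts (9.86 ± 0.78), and CDH3, which encodes P-cadherin, 2 and 2 against 286 and 357, at least 61-fold higher. Other members were higher in MiaPaCa2. NECTIN3, which forms junctions through afadin, had 21.8 and 21.7 FPKM in MiaPaCa2 and 1.37 and 2.103 in PANC1 (-3.60 ± 0.27). CADM2, an immunoglobulin-type synaptic adhesion gene, differed by -6.12 ± 0.34 and the large cadherin gene CELSR2 by -2.86 ± 0.19. CD44 and CD9 were not called, and VCAM1, CHL1 and NECTIN4 had 3 counts or fewer in each library.

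Matrix genes were changed in both directions and by wide margins. Of 48 tested, 18 were higher in PANC1 and 16 lower, and 16 and 7 of these by at least 4-fold. NID1, which encodes nidogen, a linker of laminin and collagen IV, had 1 and 2 counts in MiaPaCa2 and 5408 and 8287 in PANC1, at least 1286-fold higher. LOXL1, a collagen cross-linking oxidase gene, had 0 and 0 against 842 and 983 counts, at least 176-fold higher, and the matricellular gene THBS1 was at least 168-fold higher. In MiaPaCa2 the hemidesmosomal collagen COL17A1 had 66.8 and 72.4 FPKM against 0.555 and 0.153 in PANC1 (-8.56 ± 0.31, adjusted p = 1.25e-10). COL6A3, a beaded-filament collagen gene, had 12.3 and 12.3 FPKM against 0.414 and 0.436 (-4.78 ± 0.13). COL1A2 had 5277 and 4251 counts in MiaPaCa2 and 3 and 1 in PANC1, at least 2646-fold higher in MiaPaCa2, whereas its partner chain COL1A1 was called higher in PANC1, so the pair that makes collagen I was split between the lines. COL4A1 and COL4A2 were both called lower in PANC1.

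Receptor tyrosine kinases were called higher in PANC1 for 17 of 39 tested genes and lower for 7. MST1R, the receptor of macrophage-stimulating protein at chr3:49924435-49941306, had 4 and 9 counts in MiaPaCa2 and 1001 and 1227 in PANC1 (6.65 ± 0.47, adjusted p = 4.93e-08). The related MET, the hepatocyte growth factor receptor, had 9.93 and 11.1 FPKM against 36.2 and 54.7 (2.53 ± 0.16), and EPHB2 3.27 and 3.17 against 27.5 and 24.3 (2.86 ± 0.16). The other direction held for EPHA4, another ephrin receptor at chr2:222282747-222438922, with 5423 and 4053 counts in MiaPaCa2 and 18 and 16 in PANC1 (-8.92 ± 0.28, adjusted p = 2.84e-11). DDR2, a collagen receptor, had 20.1 and 17.8 FPKM against 0.253 and 0.0644, a log2 fold change of -7.43 ± 0.28. ERBB3, the neuregulin receptor, had 3.96 and 6.59 FPKM against 2.29 and 3.54. Its log2 fold change was -1.80 ± 0.20 (adjusted p = 3.79e-06) in counts, and -0.66 (adjusted p = 0.0931) by limma-trend on log2(FPKM + 1). EGFR was called higher and ERBB2 lower in PANC1.

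Ligands of the epidermal growth factor family differed in both directions. NRG1, which encodes a ligand of ERBB3, had 0 and 0 counts in MiaPaCa2 and 275 and 481 in PANC1, at least 69-fold higher. BTC, a ligand of the EGF receptor, had 348 and 230 counts in MiaPaCa2 and 1 and 3 in PANC1, at least 158-fold higher in MiaPaCa2. EPGN, another such ligand, had 0 counts in both PANC1 libraries and was at least 47-fold higher in MiaPaCa2. AREG and EREG were also called lower in PANC1, and TGFA and HBEGF were not called. Among binding proteins of insulin-like growth factors, IGFBP7 had 1 and 0 against 299 and 452 counts, at least 70-fold higher in PANC1, and IGFBP6 had 304 and 364 FPKM against 1.78 and 2.43 in the other direction (-7.26 ± 0.34). FGF11 was at least 6-fold higher in PANC1, but 82.1% of its exons overlap another gene on the same strand. Over the family, 14 of 40 tested genes were higher in PANC1 and 15 lower.

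Wnt pathway genes were called higher in PANC1 for 19 of 43 tested and lower for 6. The ligand gene WNT7B had 0.182 and 0.253 FPKM in MiaPaCa2 and 19.3 and 15.9 in PANC1 (6.47 ± 0.40). WNT5B, a ligand outside the β-catenin branch, had 0.711 and 1.49 against 13.8 and 12.04 (4.29 ± 0.39). DKK3, a secreted dickkopf family member at chr11:11977754-12031316, had 5 and 1 against 4891 and 6666 counts (10.12 ± 0.51), with 47.5% of its exons facing a gene on the opposite strand. The nuclear effector TCF7 had 36.0 and 34.4 FPKM in MiaPaCa2 and 9.28 and 6.83 in PANC1 (-2.32 ± 0.12), the receptor gene FZD8 differed by -3.18 ± 0.21, and PORCN, the acyltransferase that Wnt secretion needs, by -1.56 ± 0.17. CTNNB1, AXIN2 and LEF1, the effector β-catenin and 2 feedback or target genes, were not called, and LGR5 had 3 counts or fewer in every library.

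In the TGF-β and BMP list, 23 of 53 tested genes were higher in PANC1 and 13 lower, against 27.9% and 24.3% of all genes. TGFBR2, the receptor that binds TGF-β, lies at chr3:30648093-30735634 and had 8 and 8 counts in MiaPaCa2 and 1590 and 2601 in PANC1 (7.13 ± 0.32, adjusted p = 6.99e-10). The ligand TGFB2 had 3 and 1 against 435 and 914 counts, at least 122-fold higher, and the activin subunit gene INHBB differed by 5.78 ± 0.37. TGFBR1, the partner of TGFBR2 in the receptor, was not called. On the BMP side, the target gene ID2 had 173 and 159 FPKM in MiaPaCa2 and 24.8 and 25.1 in PANC1 (-2.86 ± 0.11). ID3, a second target, had 655 and 736 against 175 and 139 (-2.16 ± 0.22). TGFBR3, the betaglycan co-receptor gene, was lower in PANC1 by -2.20 ± 0.15.

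Notch and Hedgehog genes were higher in PANC1 for 19 of 39 tested and lower for 8, against 27.9% and 24.3% of all genes. DLL3, an inhibitory Notch ligand gene at chr19:39989535-39999121, had 17 and 13 counts in MiaPaCa2 and 2518 and 3100 in PANC1 (6.71 ± 0.42, adjusted p = 1.42e-08). GLI1, a transcription factor and target of Hedgehog signaling, had 0.823 and 0.721 FPKM against 16.2 and 12.4 (4.27 ± 0.31). LFNG, a glycosyltransferase that modifies Notch receptors, had 2.09 and 1.69 against 22.6 and 18.6 FPKM (3.38 ± 0.26). Higher in MiaPaCa2 were DNER, a neuronal Notch ligand gene, with 57.2 and 53.8 FPKM against 0.160 and 0.366 (-7.84 ± 0.23), GAS1, a Hedgehog co-receptor gene (-7.61 ± 0.49), and the receptor NOTCH3 (-2.39 ± 0.22). The signal transducer SMO was called lower in PANC1 although its target GLI1 was higher.

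Several CXC chemokine genes were higher in MiaPaCa2, while the monocyte attractant CCL2 was higher in PANC1. CXCL8, which encodes interleukin 8, had 1485 and 1024 counts in MiaPaCa2 and 14 and 30 in PANC1 (-6.63 ± 0.35, adjusted p = 2.89e-09), and CXCL5 845 and 652 against 5 and 6 (-7.77 ± 0.38). CXCL1, CXCL2, CXCL3 and CXCL6 were called in the same direction, and ACKR3, a scavenging chemokine receptor gene, was at least 127-fold higher in MiaPaCa2. CCL2 had 2 and 1 counts in MiaPaCa2 and 1574 and 2601 in PANC1, at least 388-fold higher. IL18, an inflammasome product gene, was at least 89-fold higher in PANC1, and CX3CL1 differed by 5.51 ± 0.34. Over all 47 tested cytokine and receptor genes, 15 were called in each direction, and IL6, CCL5, CXCL10 and CXCL11 had 3 counts or fewer in all 4 libraries.

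Genistein is a plant estrogen, so the receptors it could meet in the untreated lines were read. ESR1, the gene of estrogen receptor α, had 0 counts in all 4 libraries, and ESR2 had 4 and 4 counts in MiaPaCa2 and 1 and 1 in PANC1 and was not called, since its FPKM stayed below 1. The G protein-coupled receptor gene GPER1, at chr7:1121844-1133451, had 0.595 and 0.435 FPKM in MiaPaCa2 and 2.68 and 1.98 in PANC1. GPER1 counts were 32 and 18 against 165 and 185, which the fit put at 4.003-fold (adjusted p = 0.00119). VDR, the vitamin D receptor gene, had 0.503 and 0.719 against 1.66 and 1.98 FPKM (1.63 ± 0.16). ESRRA, an estrogen-related receptor gene, differed by 0.86 ± 0.24 (adjusted p = 0.00655) and RXRA, the partner of many nuclear receptors, by -0.47 ± 0.16 (adjusted p = 0.0224). Neither held throughout. The adjusted p of ESRRA was 0.0560 without MiaPaCa2 control I and 0.0595 without PANC1 control I, and that of RXRA was 0.149 without MiaPaCa2 control II and 0.303 without PANC1 control II.

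**Figure D3:**
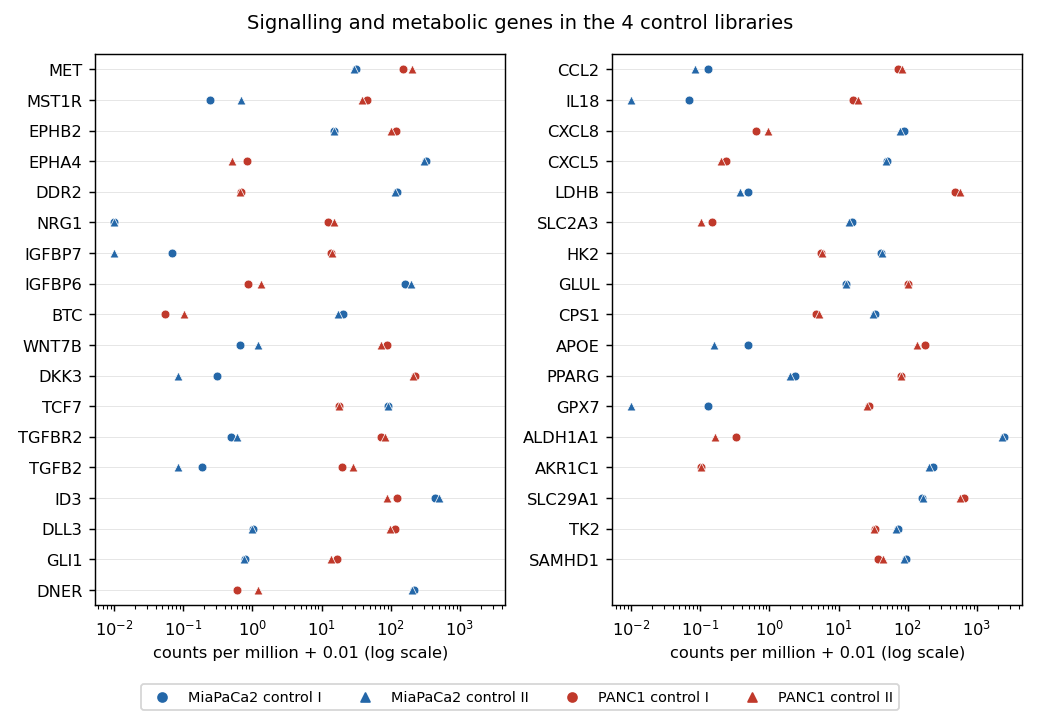
Read counts scaled to library size (CPM) plus 0.01, on a horizontal log axis, of signaling and metabolic genes in each of the 4 control libraries, MiaPaCa2 in blue and PANC1 in red, replicate I as circles and II as triangles. LDHB, CCL2 and DKK3 lie to the right in PANC1, and ALDH1A1, EPHA4 and CXCL5 to the right in MiaPaCa2.

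Among glucose genes, 12 of 44 tested were higher in PANC1 and 18 lower, against 27.9% and 24.3% of all genes tested. By at least 4-fold, 4 (9.09%) were higher and 2 (4.55%) lower, near the 8.45% and 4.42% of all genes. The gene farthest apart was LDHB, the lactate dehydrogenase subunit that favors lactate use, at chr12:21788276-21910791. LDHB had 8 and 5 counts in MiaPaCa2 and 10436 and 17990 in PANC1, that is 0.816 and 0.766 against 797 and 922 FPKM (10.18 ± 0.51, adjusted p = 1.93e-09), while the other subunit gene LDHA was not called. The glucose transporter gene SLC2A8 differed by 3.61 ± 0.30. In MiaPaCa2, the neuronal-type glucose transporter gene SLC2A3 had 259 and 190 counts against 3 and 3, 112.8-fold higher there in the fit. The hexokinase gene HK2 had 6.87 and 7.13 FPKM against 0.926 and 1.04 (-2.85 ± 0.14), and the lactate exporter gene SLC16A1 64.5 and 59.9 against 18.7 and 24.4 (-1.63 ± 0.11). SLC2A1, GPI, TPI1 and GAPDH were also called lower in PANC1, whereas ENO1, PGK1 and PKM were not called.

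Amino acid and one-carbon genes were called lower in PANC1 for 25 of 61 tested and higher for 12. GLUL, glutamine synthetase, had 8.25 and 7.53 FPKM in MiaPaCa2 and 65.9 and 55.8 in PANC1 (3.01 ± 0.13, adjusted p = 4.36e-10), and the leucine transporter gene SLC7A5 and the proline synthesis gene PYCR1 differed by 1.36 ± 0.17 and 1.10 ± 0.23. CPS1, the carbamoyl phosphate synthetase of the urea cycle, had 6.94 and 6.33 FPKM against 1.96 and 2.75 (-2.68 ± 0.14). AZIN2, which raises polyamine synthesis, and MTHFD2L, a mitochondrial folate enzyme gene, differed by -2.64 ± 0.23 and -2.11 ± 0.15. MTAP, the methionine salvage gene beside CDKN2A, had 0 or 1 count in every control library. Its deposited FPKM of 9.92 and 14.4 in PANC1 has no counterpart in the counts.

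In the lipid list, 19 of 67 tested genes were higher in PANC1 and 18 lower, which at 55.2% called is near the 52.2% of all genes. APOE, the lipoprotein ligand gene, had 8 and 2 counts in MiaPaCa2 and 3869 and 4384 in PANC1 (8.96 ± 0.92, adjusted p = 1.63e-06). PPARG, the nuclear receptor of fat storage, had 1.39 and 1.18 FPKM against 47.9 and 47.9 (5.17 ± 0.20), and ELOVL2, an elongase gene of long polyunsaturated fatty acids, 0.641 and 0.620 against 17.96 and 23.1 (4.96 ± 0.25). FADS1, FADS2 and CPT1A were called higher in PANC1 as well. SCD5, a desaturase gene, had 8.96 and 8.88 FPKM in MiaPaCa2 and 1.52 and 1.42 in PANC1 (-2.72 ± 0.14). CPT1C and ELOVL6 differed by -3.05 ± 0.27 and -2.15 ± 0.19, of which ELOVL6 was not past the test on log2(FPKM + 1), at -0.64 (adjusted p = 0.520). SCD, SREBF1 and SREBF2 were not called.

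Detoxifying enzyme genes were called higher in MiaPaCa2 more often than in PANC1. Of 62 tested genes, 27 were lower and 19 higher in PANC1. ALDH1A1, an aldehyde dehydrogenase that makes retinoic acid at chr9:75515587-75695358, had 41030 and 30366 counts in MiaPaCa2 and 7 and 5 in PANC1 (-13.28 ± 0.43, adjusted p = 3.41e-11). AKR1C1, a ketosteroid reductase gene, had 3905 and 2744 counts in MiaPaCa2 and 2 and 3 in PANC1, at least 1832-fold higher in MiaPaCa2. Its relative AKR1C2 had 710 and 501 counts against 0 and 0, at least 333-fold higher. The AKR1C genes are near-identical copies and reads that aligned to several were removed, so the split between them is uncertain. In PANC1, GPX7, a peroxidase gene of the endoplasmic reticulum, had 2 and 0 counts in MiaPaCa2 and 601 and 815 in this line, at least 134-fold higher, and GSTO2, an omega glutathione transferase gene, differed by 6.58 ± 0.40. GPX3, the secreted peroxidase, had 3 and 3 against 377 and 543 counts, 75.2-fold higher in the fit. The deposited FPKM of GPX3 in MiaPaCa2 was nevertheless 27.6 and 0.938. NQO1, GCLM and GSR were called lower in PANC1, and TXNRD1 was not called.

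Genes that carry and activate gemcitabine differed by less than 4-fold in each case. Of 23 tested, 10 were higher in PANC1 and 3 lower, which at 56.5% called is near the 52.2% of all genes. SLC29A1, the equilibrative nucleoside transporter, had 67.2 and 69.5 FPKM in MiaPaCa2 and 277 and 240 in PANC1 (1.89 ± 0.11, adjusted p = 5.47e-09), and SLC29A2 4.41 and 4.99 against 14.7 and 11.9 (1.49 ± 0.17). The nucleotidase gene NT5C also differed by 1.49 ± 0.20. DCK, the kinase that activates gemcitabine, had 332 and 252 counts against 491 and 1125, a log2 fold change of 0.60 ± 0.18 (adjusted p = 0.0120). In the deposited FPKM the order of DCK was the reverse, with 23.9 and 29.8 against 16.5 and 13.3 and a log2 difference of -0.81 (adjusted p = 0.417). The DCK call was also lost without MiaPaCa2 control I (adjusted p = 0.0696), MiaPaCa2 control II (adjusted p = 0.0628) and PANC1 control II (adjusted p = 0.122). SAMHD1, which hydrolyzes deoxynucleotide triphosphates, had 16.5 and 17.3 FPKM against 7.48 and 8.61 (-1.16 ± 0.11), and the mitochondrial kinase gene TK2 differed by -1.04 ± 0.10. CMPK1, the UMP-CMP kinase gene, was called at -0.59 ± 0.20 (adjusted p = 0.0190), and CMPK1 lost its call without PANC1 control I (adjusted p = 0.124) and without MiaPaCa2 control I (adjusted p = 0.0832). CDA, the inactivating deaminase, had 3 and 5 against 16 and 18 counts and was not called (adjusted p = 0.0572), but CDA passed the p threshold without PANC1 control II (adjusted p = 0.0439), with the GC correction (adjusted p = 0.0381) and with limma-trend on log2(FPKM + 1) (adjusted p = 0.0322).

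Across all genes with at least 10 FPKM in the higher line, the 10 largest fitted log2 fold changes in each direction fell on genes of many roles. The order of fitted values against a line at 3 counts or fewer is not that of the lower bounds, by which AGR2, ICAM1 and PPL exceed several genes named here. Those higher in PANC1 were CA8, an inactive carbonic anhydrase homolog (at least 942-fold), SLFN13 and SLFN11 of the Schlafen family (at least 393-fold and 295-fold), CRACR2B, a regulator of calcium channels (at least 390-fold), BASP1, a membrane-bound signaling protein (at least 662-fold), CES1, a liver-type carboxylesterase (at least 642-fold), TSPYL5 (at least 333-fold), SLIT3, a guidance ligand (at least 308-fold), and the NID1 and HOXC10 already described. SLFN11, which is known for its bearing on the response to DNA-damaging drugs, had 0 and 0 counts in MiaPaCa2 and 1190 and 1988 in PANC1. Those higher in MiaPaCa2 included ALDH1A1, UCA1 (at least 2096-fold), RGS4 (29274 and 22595 against 6 and 7 counts), LINC02154 (at least 2513-fold), COL1A2, EHF, the lncRNA gene ENSG00000233085 (at least 617-fold), KLK6, a secreted serine protease (at least 967-fold), and AKR1C2.

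Genes with a mean FPKM of at least 5 in one line and 3 counts or fewer in both libraries of the other numbered 1096 for PANC1 and 864 for MiaPaCa2. Most had too few counts to pass the low-count filter, and 42.6% and 46.2% of those were processed pseudogenes. Of genes that passed it, 241 met the rule for PANC1, 180 of them protein coding, and 74 for MiaPaCa2, 38 of them protein coding. The limit of 3 counts is easier to meet in the shallower MiaPaCa2 libraries. With counts thinned to the smallest library, 261 and 110 genes that passed the filter met the rule. The rule reads one line by FPKM and the other by counts, which disagree for some genes, and IKBKGP1 met it for both lines with 0 counts in all 4 libraries. With a mean FPKM below 1 in the other line also required, 214 and 57 genes were left. In the 6 treated libraries of the other line, 185 of the 241 (76.8%) and 49 of the 74 (66.2%) stayed at 3 counts or fewer in every library, and the highest single count was 23, for ALDH2 in MiaPaCa2. These genes were chosen by their control values and by the low-count filter, which used all 16 libraries. The treated libraries are therefore not fully independent of the choice.

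The line difference was then read in the treated libraries, which the control comparison did not use in its contrast. Between the lines, 55.5% of genes were called within gemcitabine, 49.8% within genistein and 54.9% within co-treatment. Of the 9330 genes called in controls, 8598 (92.2%) had the same direction within gemcitabine, 9111 (97.7%) within genistein and 8511 (91.2%) within co-treatment. Called in the same direction in controls and in all 3 drug groups were 5874 genes, 63.0% of those called in controls, and of the 2299 differences of at least 4-fold 1961 (85.3%) were. A test of whether the line difference varied between the 4 treatments passed an adjusted p of 0.05 for 2998 genes (16.8% of those tested). 208 genes were called in one direction in controls and in the other in at least 1 drug group while also passing this test, LFNG, VDR and SYP among the genes named here.

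**Figure D4:**
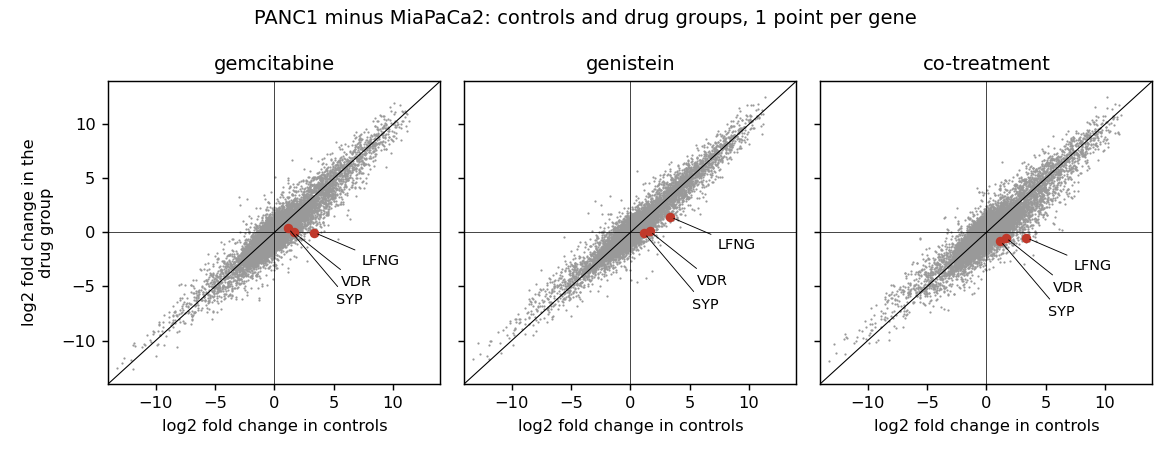
Log2 fold change (PANC1 minus MiaPaCa2) of each tested gene in controls (horizontal axis) and within gemcitabine, genistein and co-treatment (vertical axis), with the line of equal values. Most points lie along that line, and LFNG, VDR and SYP (red) fall from 3.38, 1.63 and 1.17 in controls to -0.50, -0.49 and -0.77 within co-treatment.

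By autosome, the median log2 fold change ran from -0.46 on chromosome 21 to 0.91 on chromosome 11. On chromosome 11, 550 of 944 tested genes (58.3%) were called higher in PANC1 and 91 (9.64%) lower, and on chromosome 15 263 of 582 (45.2%) and 63 (10.8%). The reverse was seen on chromosomes 5, 13, 14 and 21, with 38.3%, 37.4%, 37.6% and 44.3% of tested genes called lower. In windows of 10 Mb with at least 20 tested genes, the highest median was at chr11:1-10000000 (139 genes, 71.9% called higher) and the lowest -1.38 at chr8:20000001-30000000 (70 genes, 67.1% called lower), both on GRCh37. No test was made on chromosomes, since neighboring genes are not independent.

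**Figure D5:**
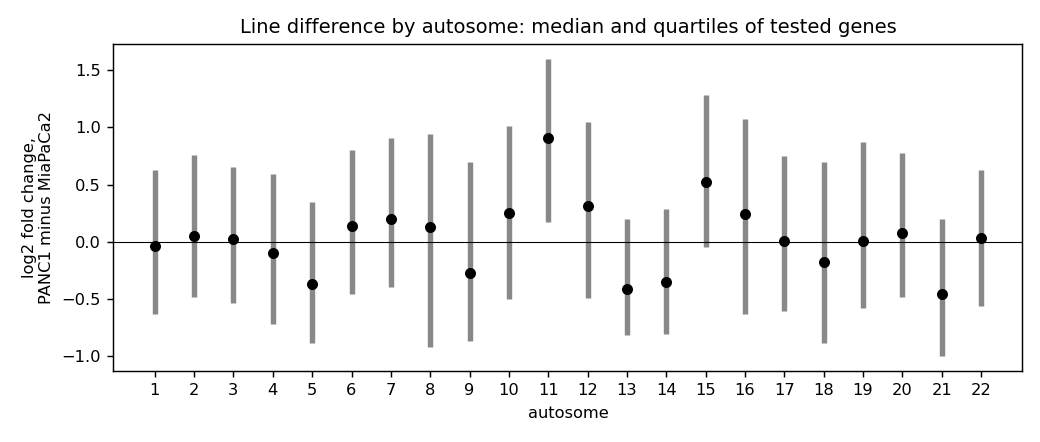
Median (point) and quartiles (bar) of the log2 fold change, PANC1 control minus MiaPaCa2 control, over the tested genes of each autosome. Chromosome 11 has the highest median at 0.91 and chromosome 21 the lowest at -0.46.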

How the data were processed

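The authors prepared poly-A libraries with a stranded kit and sequenced single reads. They mapped them to GRCh37 with TopHat 2.0.4 and removed reads with multiple alignments with Picard 1.29. The deposited counts per gene are whole numbers without normalization from HTSeq 0.6.1, and the authors calculated the deposited FPKM values with Cufflinks 2.1.1. Which annotation release was used, and whether counting used strand, is not given in the sources used here, so overlapping genes are uncertain. FPKM per isoform were not used.

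Differences were tested on the counts by limma-voom (limma 3.58.1 in R 4.3.3) after TMM normalization and edgeR 4.0.16's low-count filter, in 1 model of all 16 libraries with a mean per group, so that the 8 groups share the spread. P-values were adjusted by Benjamini-Hochberg over the 17863 genes tested. The members of the comparison, the gene lists and the tests were chosen with earlier results of these data known. Genes named with values are the 10 largest differences in each direction at 10 FPKM or more, up to 3 per direction in each list at 5 FPKM or more, and 17 defining genes. CLDN7, AP1M2 and JUP (promoters) and single genes of the closing section were chosen after their values were seen. A fold against a line whose libraries all held at most 3 counts was computed against 3 counts per library and is a lower bound of the counted ratio. Where that line held 3 counts in both libraries it is no bound, and the fitted fold is given for SLC2A3 and GPX3. The bound covers no error other than counting error, and not all of that where the low line held some counts. All statements on depth cover counting error only. PECAM1 could not be matched. Some items that the rule names are not reported here. Gene positions and exon overlaps are from GENCODE v44 lifted to GRCh37. Simulated counts gave both lines the MiaPaCa2 control means, with 100 genes changed 2-fold and 100 changed 4-fold among 17659. Of these, 55% and 82% were called. Far fewer genes changed there than in the data, and no GC effect or FPKM threshold was set. The shares thus do not give the recovery in this comparison. Alternatives were edgeR's quasi-likelihood test, DESeq2 1.42.0, other scalings and filters, a replicate block, a GC correction, log2(FPKM + 1), thinned counts and each control library left out.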

Additional observations from a re-analysis of the deposited data

Results flagged for a closer look

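LFNG, VDR and SYP were called higher in PANC1 in controls and lower in PANC1 within co-treatment, and the test of the difference between treatments passed for each. Within co-treatment the limma-voom adjusted p was 0.0460 for LFNG (SE 0.20), close to the threshold. It was 0.00102 for VDR (SE 0.10) and 4.77e-04 for SYP (SE 0.15). Co-treatment libraries I and II also differed with GC content, with Spearman's rho of -0.699 in PANC1 and -0.565 in MiaPaCa2. LFNG had a log2 fold change of 3.38 in controls, -0.02 within gemcitabine, 1.42 within genistein and -0.50 within co-treatment (adjusted p of the difference between treatments = 3.32e-05). Its FPKM in MiaPaCa2 was 2.09 and 1.69 in controls and 11.7 and 13.6 within co-treatment, and in PANC1 22.6 and 18.6 and then 8.33 and 11.6. VDR had 1.63 in controls, 0.01 within gemcitabine, 0.11 within genistein and -0.49 within co-treatment (adjusted p = 7.10e-05), with MiaPaCa2 at 0.503 and 0.719 FPKM in controls and 5.86 and 6.03 within co-treatment and PANC1 at 1.66 and 1.98 and then 4.91 and 4.66. SYP had 1.17 in controls and -0.77 within co-treatment (adjusted p = 5.03e-04), with MiaPaCa2 at 3.25 and 2.55 FPKM in controls and 10.4 and 11.8 within co-treatment and PANC1 at 7.64 and 7.78 and then 7.32 and 10.6.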

How the results depend on the processing

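With 2 libraries per line, 9330 genes were called, and between 7328 and 10595 under other tests, scalings and filters. Each control library left out in turn gave 8123 to 9399. The count of differences of at least 4-fold was 2299 (1510 higher and 789 lower in PANC1), and fell to 1206 (835 and 371) with limma-trend on log2(FPKM + 1) and to 784 (476 and 308) with FPKM above 1 required in both lines. Genes at 5 FPKM in PANC1 and 3 counts or fewer in MiaPaCa2 numbered 1096, and 556 with 0 counts as absent, 2572 at an FPKM of at least 1, 241 past the low-count filter, 261 past it when thinned and 214 past it with under 1 FPKM in the other line. For MiaPaCa2 the numbers were 864, 439, 1773, 74, 110 and 57. Of 546 list counts under alternatives, 536 stayed within 1.5 times. Integrins and laminins lower in PANC1 went from 1 to 2 with library size alone and with the GC correction, with and without the replicate block. HOX genes lower went from 0 to 1 with the GC correction, with and without the block, and when thinned. Receptor kinases lower went from 7 to 4 with log2(FPKM + 1). In the list of estrogen receptors, related receptors and partners, 1 of 6 tested genes was lower. It went to 0 with log2(FPKM + 1) and with only the 4 control libraries, with and without the block. With a library left out, genes lower in this receptor list ranged from 0 to 2 and HOX genes lower from 0 to 1 (1 without MiaPaCa2 I or PANC1 I). Integrins and laminins lower ranged from 1 to 2 (2 without PANC1 I) and ductal products lower from 1 to 3 (1 without MiaPaCa2 II). The cause was not tested.

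Of 137 named genes tested, DCK reversed with log2(FPKM + 1) (-0.81), and the other named genes kept their direction in all alternatives. In 13 values under alternatives and 12 with a library left out a named gene lost its place past an adjusted p of 0.05, all of them values of DCK, CMPK1, RXRA, ESRRA, ESR2, GATA6, ERBB3 or ELOVL6. In 5 and 2 values CDA or ZEB1 passed it, CDA among them with a replicate block in the 4 controls (adjusted p = 0.0380). Chromosome medians moved by more than their spread for chromosome 2 with library size (0.03), 10 with DESeq2 size factors (0.23) and library size (0.22), 12 likewise (0.29 and 0.28) and 18 with library size (-0.22). The labels I and II pair no samples by any other information, and the I minus II differences of the controls correlated at -0.104. The replicate block left 9178 calls. With only the 4 control libraries, 8467 genes were called, 8076 with the replicate block and 9576 with the pairing crossed. The block and the crossed pairing within these 4 libraries, the limits to genes past the low-count filter and to under 1 FPKM for presence in 1 line and the list counts without each library were added after the data were seen. These counts and the precision of single genes are limited by 2 libraries per line, of which PANC1 I and II differ by GC content.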

Other observations

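Several genes beside those of the lists were at 3 counts or fewer in both control libraries of one line. They are given as values chosen after they were seen. Higher in MiaPaCa2, CARD16, a caspase-1 regulator, had 497 and 471 counts in MiaPaCa2 and 0 and 0 in PANC1, and 0 in all treated PANC1 libraries. NKX2-5, a homeobox gene known from the heart, had 280 and 273 against 0 and 0, and TPRG1, a neighbor of TP63, 1115 and 866 against 1 and 1. GJB5, a connexin of stratified epithelia, had 459 and 354 against 0 and 1. Higher in PANC1 were BARX1, a homeobox gene of stomach mesenchyme (1 and 2 against 1298 and 1502), IGF2BP1, an RNA-binding protein of embryonic tissue (1 and 1 against 2449 and 3294), PYCARD, the inflammasome adaptor (0 and 1 against 958 and 911), and GSDMD, the gasdermin (0 and 1 against 952 and 1007).

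The deposited FPKM and counts gave opposite signs for 57 of the 9330 called genes. CRIP1 had 68 and 96 counts in PANC1 at a mean FPKM of 1001, and CD68 13 and 14 counts at a mean FPKM of 119, so levels of such genes rest on few counted reads.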
